A study of Danio rerio with 24 samples.

Results

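The genes described here are 9 genes of the zebrafish epidermis, not all of them particular to it. They comprise 6 keratins (krt4, krt5, krt8, krt18, cyt1 and cyt1l), the transcription factors tp63 and foxi3a, and the adhesion molecule epcam. All 9 names were kept whatever their values, and each was found once by its symbol among the 16361 genes listed at 1 h and at 4 h and the 18984 genes listed at 8 h. Their identifiers in the files are ENSDARG00000017624 (krt4), ENSDARG00000058371 (krt5), ENSDARG00000058358 (krt8), ENSDARG00000018404 (krt18), ENSDARG00000092947 (cyt1), ENSDARG00000036832 (cyt1l), ENSDARG00000044356 (tp63), ENSDARG00000040534 (epcam) and ENSDARG00000055926 (foxi3a). All 9 passed the filter on low counts at each time.

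The study asked which transcripts change when the multi-kinase inhibitor TP-0903, which blocked the emigration of neural crest cells, is given to zebrafish embryos, and it sequenced total RNA of whole embryos after ribosomal RNA was depleted. There were 24 libraries in 6 groups of 4, each made from 35 embryos. All of the embryos carried the transgene Tg(snail1b:GFP), a reporter driven by sequences of an epithelial-to-mesenchymal transition gene, so no library is free of it. Treatment began at 8 somites (13 hours post-fertilization, hpf), and embryos in TP-0903 or in DMSO, the vehicle, were collected after 1 h at 10 somites (14 hpf), after 4 h at 16 somites (17 hpf) and after 8 h at 21 somites (19.5 hpf). The TP-0903 dose of these embryos is not given in the sources used here, and 8 h after 13 hpf is later than the stage given for that group.

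The early zebrafish epidermis has an outer sheet, the periderm, which derives from the enveloping layer of the blastula, and a basal layer of keratinocytes beneath it. Keratins build the intermediate filaments of both layers, always as pairs of a type I and a type II protein. Bone morphogenetic protein (BMP) signaling directs ventral ectoderm to this fate, tp63 maintains the basal keratinocytes, and scattered skin cells become ionocytes, which transport salts.

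Library totals lay between 3879310 and 10582470 counts, and the 9 genes took between 1.15% and 2.24% of them. Levels are given in CPM, the count a gene would have in a library of 1000000 counts after TMM scaling, and differences as log2 fold changes of TP-0903 over DMSO with their standard error (SE). The test was edgeR's quasi-likelihood test over all genes of a table, and called means a Benjamini-Hochberg adjusted p under 0.05. The study calls the replicates biological; p-values measure the spread between these libraries. At 1 h the libraries did not spread evenly: once each treatment's mean was subtracted, the first principal component took up 71.7% of the variance among them (38.8% at 4 h and 26.6% at 8 h), and TP-0903 replicates 1 and 3 and DMSO replicate 4 lay at one end of it.

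After 8 h, every one of the 9 genes was lower in TP-0903 embryos, and 8 of them were called. Of all 17478 genes tested, 13.5% were called lower and 15.4% higher. The fitted levels were between 64.1% and 82.0% of those in DMSO embryos, and the median log2 fold change of the 9 genes was -0.43, beside -0.0062 over all genes tested. In 6 of the 9 genes each TP-0903 library lay below each DMSO library, which was so for 13.3% of all genes. The RNA came from whole embryos, so fewer cells that express these genes, epidermal or other, and less RNA per such cell cannot be told apart here.

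**Figure D1:**
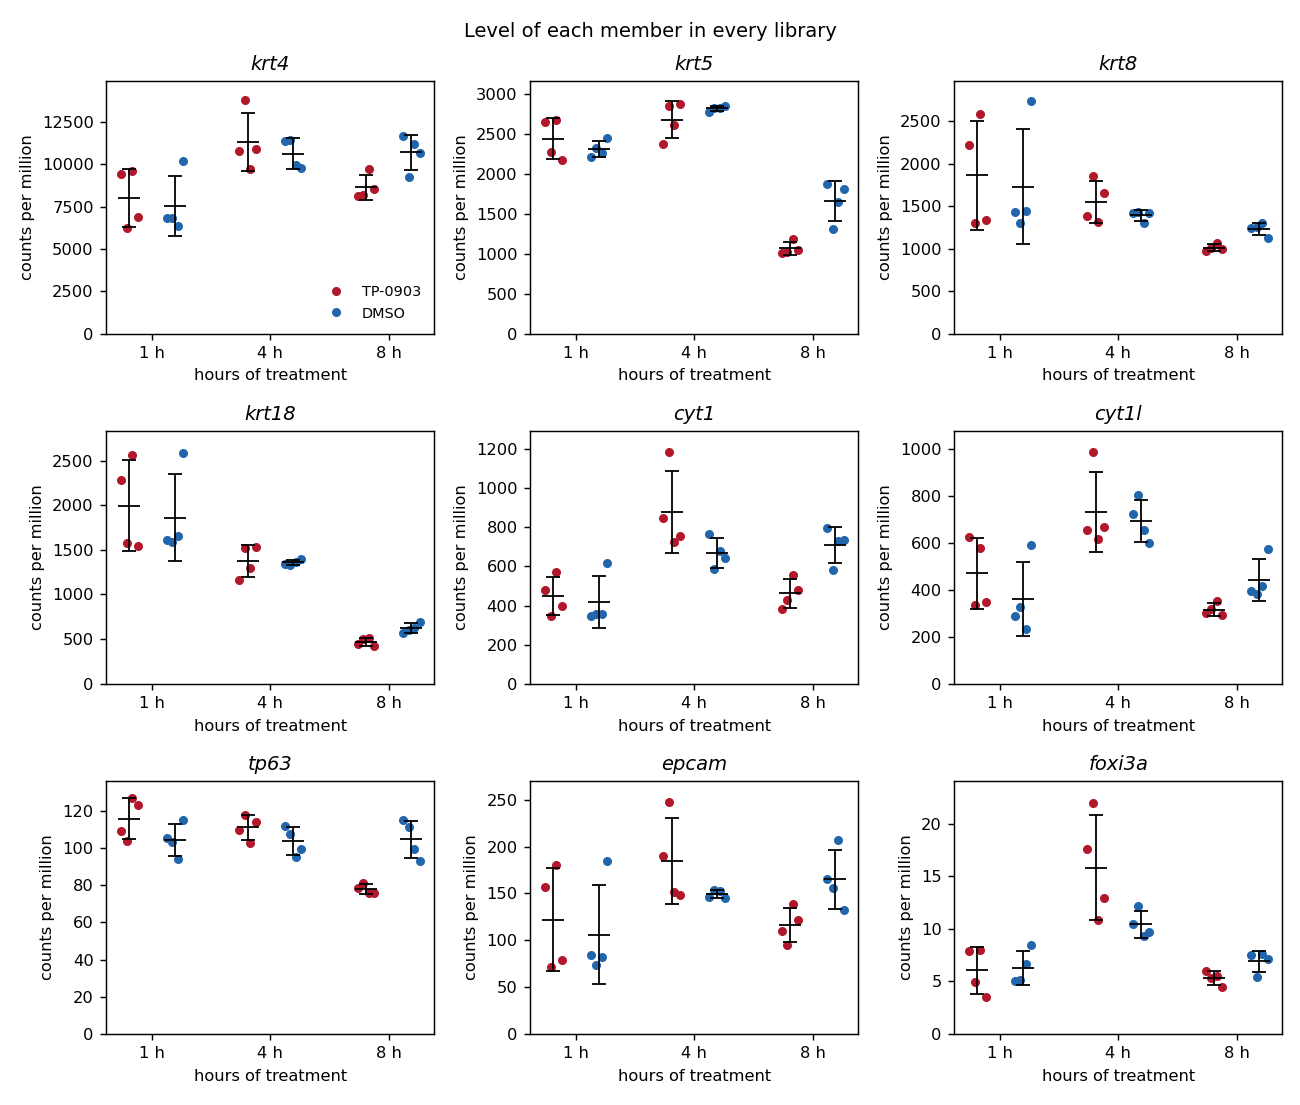
CPM of the 9 genes (one panel each) in every library, with TP-0903 (red) left of DMSO (blue) at 1, 4 and 8 h; horizontal marks are means and bars are standard deviations, n = 4 libraries per group. At 8 h the red points of krt5, krt8, krt18, cyt1, cyt1l and tp63 all lie below the blue points, and at 1 h DMSO replicate 4 lies far above the other DMSO libraries in krt8, krt18, cyt1 and epcam.

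Among the type II keratins, krt4, a general marker of zebrafish skin, was the most abundant per unit of length. Its level at 8 h was 8124, 8190, 9710 and 8540 CPM in TP-0903 replicates 1 to 4, against 11671, 9259, 11211 and 10657 CPM in DMSO replicates 1 to 4. TP-0903 replicate 3 was above DMSO replicate 2, so the groups overlapped by this pair of libraries. The log2 fold change was -0.31 (SE 0.080; edgeR adjusted p = 0.0104), and the fitted level was 80.8% of that in DMSO embryos.

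The gene krt5, whose mammalian counterpart marks basal keratinocytes, had the lowest fold change of the 9. It stood at 1004, 1026, 1185 and 1050 CPM in TP-0903 embryos, against 1878, 1310, 1651 and 1817 CPM in DMSO embryos. The groups did not overlap, although DMSO replicate 2, which was also the lowest for krt4, came near the TP-0903 range. Its log2 fold change was -0.64 (SE 0.099; edgeR adjusted p = 0.000294).

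For krt8, a type II keratin of simple epithelia, the libraries were close together. TP-0903 embryos had 972, 1004, 1067 and 995 CPM, against 1243, 1255, 1302 and 1123 CPM in DMSO embryos. The groups were separate, with a log2 fold change of -0.29 (SE 0.065; edgeR adjusted p = 0.00458).

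The type I keratins showed the same direction. The usual partner of krt8, krt18, had 446, 498, 517 and 417 CPM in TP-0903 embryos, against 566, 603, 627 and 694 CPM in DMSO embryos. Every TP-0903 library was below every DMSO library, and the log2 fold change was -0.41 (SE 0.083; edgeR adjusted p = 0.00232).

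Levels of cyt1, a type I keratin known from the enveloping layer, were 382, 429, 555 and 481 CPM in TP-0903 embryos, against 798, 581, 729 and 734 CPM in DMSO embryos. TP-0903 replicate 3 was the highest and DMSO replicate 2 the lowest of their groups, as for krt4 and krt5, and they came close without overlapping. The log2 fold change was -0.62 (SE 0.11; edgeR adjusted p = 0.000995). Its relative cyt1l had 302, 317, 353 and 291 CPM in TP-0903 embryos, against 396, 383, 417 and 574 CPM in DMSO embryos. These groups were also separate, DMSO replicate 4 standing well above the other DMSO libraries, and the log2 fold change was -0.49 (SE 0.11; edgeR adjusted p = 0.00536). Reads shared by near-identical keratin genes were discarded in the alignment, so each keratin is represented by the reads that its sequence keeps apart, and the split between close relatives such as cyt1 and cyt1l is uncertain.

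The 6 keratins together summed to 11230 to 13387 CPM in TP-0903 libraries at 8 h, and to 13391 to 16551 CPM in DMSO libraries. The mean sum was 11964 ± 974 CPM in TP-0903 embryos and 15370 ± 1377 CPM in DMSO embryos (SD, n = 4 each). The mean sum of TP-0903 libraries was thus 77.8% of that of DMSO libraries at this time. Most of both sums was krt4, with means of 8641 CPM in TP-0903 libraries and 10700 CPM in DMSO libraries. The mean keratin sum of TP-0903 libraries was 105% of that of DMSO libraries at 4 h and 107% at 1 h, but the groups overlapped at both times. At 4 h the sums were 16305 to 22209 CPM in TP-0903 libraries and 16696 to 18423 CPM in DMSO libraries. At 1 h they were 12077 to 18549 CPM in TP-0903 libraries and 12300 to 19174 CPM in DMSO libraries.

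The transcription factor tp63, required for basal keratinocytes, was present at lower levels per unit of length than any of the 6 keratins. TP-0903 embryos had 78.4, 81.4, 75.8 and 75.8 CPM at 8 h, against 115, 111, 99.5 and 93.2 CPM in DMSO embryos. All 4 TP-0903 libraries lay below the DMSO range and within a few CPM of each other. The log2 fold change was -0.43 (SE 0.079; edgeR adjusted p = 0.00114), and tp63 and krt5 were the pair of genes called at 8 h in each of the 13 alternative analyses.

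The gene epcam encodes a cell adhesion molecule found across embryonic epithelia, not in skin alone. It had 110, 94.7, 139 and 122 CPM in TP-0903 embryos, against 165, 156, 208 and 132 CPM in DMSO embryos. The groups overlapped through TP-0903 replicate 3 and DMSO replicate 4, and the log2 fold change was -0.51 (SE 0.13; edgeR adjusted p = 0.0102).

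The forkhead factor foxi3a, which specifies skin ionocytes in zebrafish, had the fewest reads of the 9 genes, with 37 to 48 counts per TP-0903 library and 47 to 69 counts per DMSO library at 8 h. These correspond to 5.95, 5.32, 5.53 and 4.46 CPM in TP-0903 embryos, against 7.50, 5.41, 7.61 and 7.09 CPM in DMSO embryos. DMSO replicate 2 fell among the TP-0903 libraries, and the other DMSO libraries were higher. The log2 fold change of -0.38 (SE 0.16) did not pass the threshold (edgeR adjusted p = 0.0993).

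**Figure D2:**
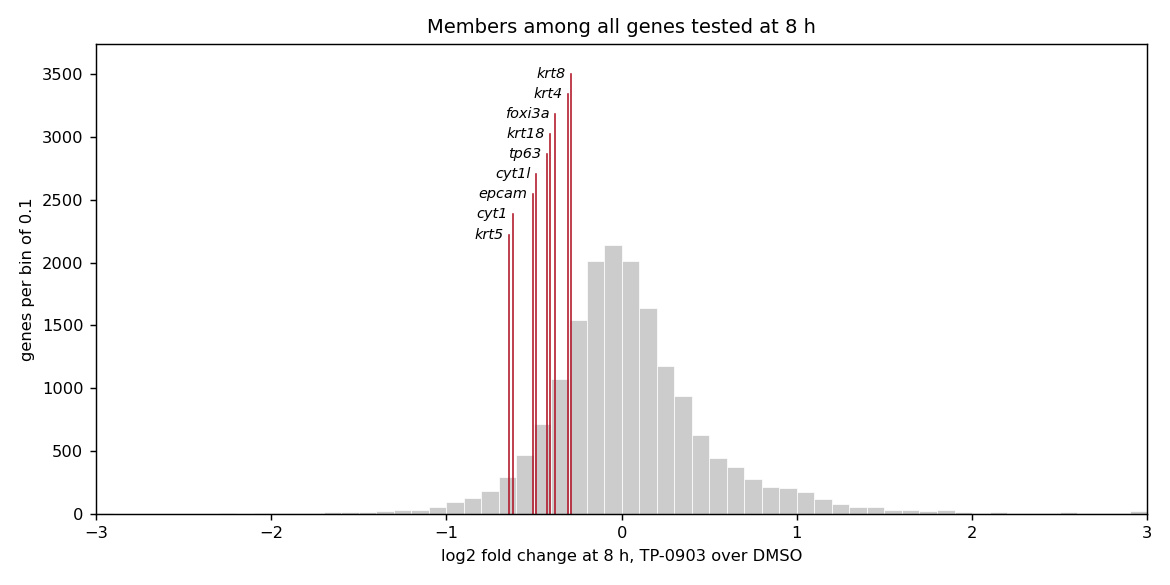
Histogram of the log2 fold change of all 17478 genes tested at 8 h, TP-0903 over DMSO (horizontal axis, bins of 0.1, with genes beyond either end placed in the last bin; vertical axis, number of genes), with a red line at each of the 9 genes. All 9 lines lie left of 0, between -0.64 (krt5) and -0.29 (krt8).

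The 8 calls at 8 h were not kept under each alternative. When the libraries of all times were fitted together, over the genes that the tables share and with a common scaling and 1 estimate of the spread per gene, krt5 and tp63 were the 2 genes called, and 1478 genes were called in all instead of 5050. Which of these differences lowered the counts was not tested. Fold changes at 8 h and gene model lengths were correlated across all genes, which are not independent (Spearman coefficient 0.22). The 9 genes have models of 1461 to 2250 or of 2250 to 3522 bases, and the median log2 fold changes of all genes of these lengths were -0.053 and -0.0028. The part of length in the values of the 9 genes was not tested.

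After 4 h none of the 9 genes was called by edgeR, where 0.74% of the 15953 genes tested were called in either direction. At an unadjusted p under 0.05 there were 2, foxi3a and cyt1, beside 1505 genes of the whole table, and DESeq2 also called 0 of the 9. Their log2 fold changes lay between -0.07 (krt5) and 0.60 (foxi3a), and 8 of 9 were above 0.

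The values that stood out at 4 h came from particular libraries. For foxi3a, TP-0903 embryos had 17.6, 22.0, 10.8 and 12.9 CPM, against 10.5, 12.2, 9.35 and 9.71 CPM in DMSO embryos. TP-0903 replicates 1 and 2 were well above all DMSO libraries, replicate 4 was just above them, and replicate 3 lay inside the DMSO range. The log2 fold change was 0.60 (SE 0.20; unadjusted p = 0.0131 and adjusted p = 0.358 in edgeR).

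The pattern of epcam was alike, with 191, 247, 152 and 148 CPM in TP-0903 embryos, against 146, 154, 152 and 145 CPM in DMSO embryos. Here too replicates 1 and 2 were high and replicates 3 and 4 were at the DMSO level (log2 fold change 0.30, SE 0.14; edgeR adjusted p = 0.561). For cyt1 the TP-0903 libraries had 850, 1186, 723 and 758 CPM, against 767, 587, 679 and 641 CPM in DMSO embryos, and again replicates 1 and 2 were above the DMSO range (log2 fold change 0.39, SE 0.15; edgeR adjusted p = 0.442). In krt4, krt8 and cyt1l TP-0903 replicate 2 was the highest library of 4 h, at 13806, 1851 and 986 CPM. The first principal component of 4 h placed TP-0903 replicate 2 at one end (0.61) and replicates 3 and 4 at the other (-0.46 and -0.37). TP-0903 replicate 1 scored 0.22, and DMSO replicates 1 to 4 scored 0.305, 0.16, -0.27 and -0.19. DMSO replicates 1 and 2 were thus on the side of TP-0903 replicates 1 and 2, without their high foxi3a and epcam. Whether this spread among libraries bears on the fold changes was not tested.

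The remaining genes differed little at 4 h. The level of krt5 was 2683 ± 236 CPM in TP-0903 embryos and 2824 ± 31 CPM in DMSO embryos. That of krt18 was 1377 ± 181 CPM in TP-0903 embryos and 1360 ± 31 CPM in DMSO embryos, and that of tp63 was 111 ± 6.6 CPM in TP-0903 embryos and 104 ± 7.6 CPM in DMSO embryos (SD, n = 4 each). In all 3 the groups overlapped.

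**Figure D3:**
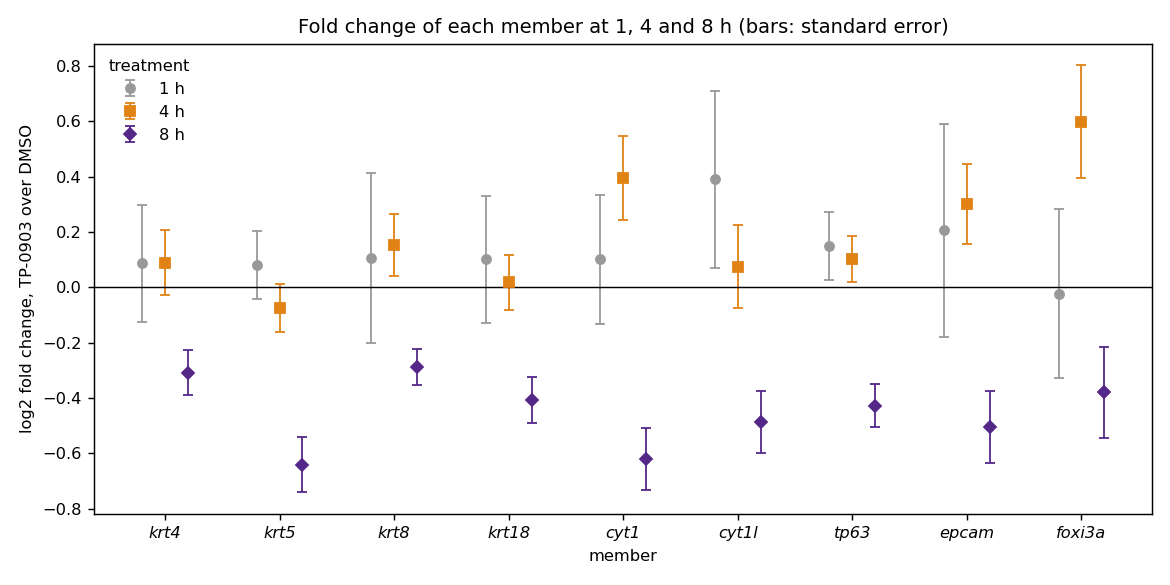
Log2 fold change of the 9 genes, TP-0903 over DMSO, after 1 h (grey circles), 4 h (orange squares) and 8 h (purple diamonds). Bars are standard errors obtained from the fold change and the F statistic of the edgeR test, with 4 libraries per group. The purple points all lie below 0, between -0.64 and -0.29, and the orange points lie between -0.07 and 0.60.

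After 1 h edgeR called none of the 9 genes and 0 of the 15530 genes tested (0%). No member had an unadjusted p under 0.05, 214 genes of the table had one, and DESeq2 called 13 genes, none of them a member. Log2 fold changes lay between -0.02 (foxi3a) and 0.39 (cyt1l), with standard errors of up to 0.39 (epcam).

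The spread within groups at 1 h was wide for most of the 9 genes and had a common form. For krt8, TP-0903 embryos had 2223, 1300, 2581 and 1339 CPM, against 1430, 1301, 1447 and 2742 CPM in DMSO embryos. TP-0903 replicates 1 and 3 and DMSO replicate 4 were high, and the other 5 libraries of both treatments lay close together. For epcam the TP-0903 libraries had 157, 71.3, 181 and 79.4 CPM, against 83.7, 73.7, 82.4 and 185 CPM in DMSO embryos, with the same 3 libraries high. These are the libraries at one end of the first principal component of 1 h, and they were also the 3 highest for krt4, krt18, cyt1, cyt1l and foxi3a.

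Not all epidermal genes varied in this way. The level of krt5 was 2647, 2281, 2681 and 2170 CPM in TP-0903 embryos, against 2218, 2323, 2259 and 2448 CPM in DMSO embryos, and that of tp63 was 109, 104, 127 and 123 CPM in TP-0903 embryos, against 105, 103, 94.1 and 115 CPM in DMSO embryos. The 3 libraries were thus higher for krt5 by a far smaller margin, and for tp63 TP-0903 replicate 4 was above 2 of them. Without the 3 libraries, an analysis chosen after seeing the data, 0 of the 9 genes were called and the log2 fold changes of krt4, krt5, krt8, krt18 and epcam turned to values between -0.08 and -0.02.

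The change of the TP-0903 effect over time was tested as an interaction, the log2 fold change at the later time minus that at the earlier one. Between 8 h and 4 h, 6 of the 9 genes were called, all with a lower fold change at 8 h, beside 7.74% of the 15913 genes tested. The 8 h counts come from a table made separately, so time cannot be told apart from a difference between the tables. The differences were -0.55 for krt5 (SE 0.14; edgeR adjusted p = 0.0169), -0.42 for krt8 (SE 0.14; 0.0475), -0.99 for cyt1 (SE 0.21; 0.00465), -0.51 for tp63 (SE 0.12; 0.00934), -0.79 for epcam (SE 0.22; 0.0233) and -0.96 for foxi3a (SE 0.28; 0.0288). Thus foxi3a, which was not called at either time alone, differed between the times, being at 151% of the DMSO level at 4 h and 76.9% at 8 h. This call was made in 13 of 21 alternatives and was lost without TP-0903 replicate 2 or DMSO replicate 3 or 4 of 4 h, and without TP-0903 replicate 2 or 4 or DMSO replicate 1 or 3 of 8 h. That of krt8 was made in 6 of 21, being lost with RLE normalization and without any 1 of 13 of the 16 libraries, those of epcam, krt5 and cyt1 in 18, 20 and 20 of 21, and that of tp63 in all 21. The 3 genes not called were krt4 (-0.38, SE 0.15; edgeR adjusted p = 0.107), krt18 (-0.40, SE 0.14; 0.0562) and cyt1l (-0.54, SE 0.21; 0.0900). The median over the 9 genes was -0.54, beside -0.02 over all genes. The count was 3 without DMSO replicate 3 of 8 h or without TP-0903 replicate 2 of 8 h, and 1 (tp63) when all 24 libraries were fitted together.

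Between 4 h and 1 h the interaction was called for 0 of the 9 genes and for 0 of 16283 genes by edgeR (0%). None of the 9 had an unadjusted p under 0.05, 343 genes of the table had one, and DESeq2 called 7 genes and none of the 9.

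In DMSO embryos the epidermal genes followed different courses as somites were added. The comparison of 4 h with 1 h, 16 somites with 10, called 5 of the 9 genes, all higher at 4 h, where 10.8% of the 15948 genes tested were called higher. They were krt4 (log2 fold change 0.54, SE 0.16; edgeR adjusted p = 0.0404), krt5 (0.33, SE 0.091; 0.0295), cyt1 (0.72, SE 0.19; 0.0259), cyt1l (0.99, SE 0.25; 0.0207) and foxi3a (0.79, SE 0.19; 0.0182).

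Levels of krt4 in DMSO embryos were 11387, 11429, 9937 and 9775 CPM at 4 h, against 6851, 6826, 6353 and 10188 CPM at 1 h, where replicate 4 reached the 4 h range. Those of cyt1l were 723, 803, 653 and 598 CPM at 4 h, against 288, 327, 233 and 590 CPM at 1 h, again with replicate 4 near the later level. The other 4 genes were not called: krt18 had a log2 fold change of -0.41 (SE 0.16; edgeR adjusted p = 0.0947), krt8 of -0.27 (SE 0.21; 0.406), tp63 of 0.03 (SE 0.10; 0.854) and epcam of 0.54 (SE 0.26; 0.163).

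These calls changed with the libraries used. Without DMSO replicate 4 of 1 h 7 genes were called, with epcam higher (0.95) and krt18 lower (-0.21) at 4 h in addition, and without any 1 of the other 7 libraries the count was between 0 and 2. It was 0 without DMSO replicate 1 or 2 of 1 h and 1 without DMSO replicate 3 of 1 h or replicate 1 or 2 of 4 h.

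The 8 h values come from a table made separately, with more genes, so DMSO levels at 8 h were set beside the others without a test. Mean krt18 in DMSO embryos was 1861 ± 485 CPM at 1 h, 1360 ± 31 CPM at 4 h and 622 ± 54 CPM at 8 h, and mean krt5 was 2312 ± 101, 2824 ± 31 and 1664 ± 255 CPM at these times. By contrast krt4 was 7554 ± 1770, 10632 ± 899 and 10700 ± 1046 CPM, and tp63 was nearly level at 104 ± 8.6, 104 ± 7.6 and 105 ± 10.2 CPM (SD, n = 4 at each time). The gene models differed between the tables as well, by a few bases for most of the 9 genes, but that of cyt1 was 1770 bases at 1 h and 1675 bases at 8 h, and that of cyt1l was 1410 bases and 1563 bases.

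Per unit of length, in the deposited FPKM, krt4 was the most abundant of the 9 in DMSO embryos at 8 h (mean 4272 ± 387 FPKM), followed by krt5 (663 ± 97 FPKM). Then came cyt1 (419 ± 51 FPKM) and krt8 (418 ± 26 FPKM), whose levels did not differ beyond their spread. Next were krt18 (331 ± 30 FPKM) and cyt1l (280 ± 57 FPKM), whose ranges overlapped, then epcam (110 ± 21 FPKM), tp63 (30.3 ± 2.8 FPKM) and foxi3a (4.27 ± 0.61 FPKM; SD, n = 4 for each gene). At 1 h krt18 was second, at 998 ± 193 FPKM, beside krt5 at 938 ± 28 FPKM, and the ranges of both overlapped.

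The proportions among the keratins also differed between the times. For 8 h, stage cannot be told apart from the separately made table and its gene models. On the FPKM scale krt4 made up 48.7% to 51.3% of the 6 keratins in TP-0903 libraries at 1 h, 56.0% to 59.2% at 4 h and 69.0% to 70.2% at 8 h. In DMSO libraries it made up 49.1% to 51.1%, 55.4% to 58.7% and 65.2% to 68.0% at the same times. The groups were apart at 8 h alone. For each 100 FPKM of krt4 there were 12.2 to 12.5 FPKM of krt5 in TP-0903 libraries at 8 h, against 14.1 to 17.0 FPKM in DMSO libraries, also without overlap. The corresponding ratio of the partners krt18 and krt8 was 65.6 to 77.7 per 100 in TP-0903 libraries and 71.3 to 96.8 per 100 in DMSO libraries at 8 h, which overlapped, and at 1 h it was 156 to 190 per 100 in TP-0903 libraries and 148 to 192 per 100 in DMSO libraries. These ratios were looked at after the levels were known and are given without a test.

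**Figure D4:**
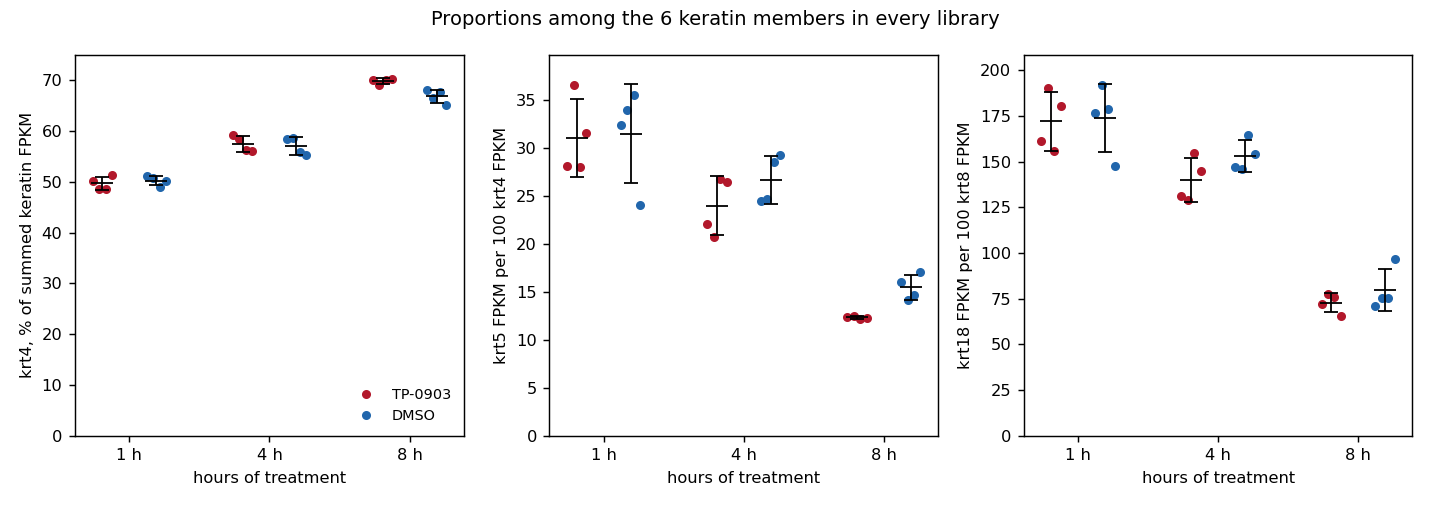
Share of krt4 in the summed FPKM of the 6 keratins (left), krt5 per 100 krt4 (middle) and krt18 per 100 krt8 (right) in every library, with TP-0903 (red) left of DMSO (blue) at 1, 4 and 8 h; horizontal marks are means and bars are standard deviations, n = 4. At 8 h krt5 per 100 krt4 was 12.2 to 12.5 in TP-0903 libraries and 14.1 to 17.0 in DMSO libraries.

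Other genes of the epidermis were taken from lists by layer and function. These lists were chosen with earlier results of these data known, so the shares called in them are not independent support. Of the 7 other genes with a krt symbol, 6 were tested at 8 h and 5 were called, all of them lower, beside 13.5% of all genes. They were led by krt17, which had 72.9, 75.2, 97.1 and 72.8 CPM in TP-0903 embryos, against 174, 149, 162 and 228 CPM in DMSO embryos, so that the groups were far apart (log2 fold change -1.16, SE 0.13; edgeR adjusted p = 1.44e-05). The others were krt1-19d (-0.71), KRT80 (-0.50), KRT222 (-0.38) and krtcap2 (-0.34), the last of which is a subunit of the oligosaccharyltransferase and not a keratin. The one not called, krt15, had a log2 fold change of 0.42 (edgeR adjusted p = 0.275).

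Of 12 periderm genes, 9 were called at 8 h, all of them lower, beside 13.5% of all genes. The list's median log2 fold change was -0.51. The furthest were anxa1c, an annexin (-0.68), the Kruppel-like factor klf17 (-0.60), icn, a calcium-binding S100 protein of skin (-0.59), and the grainyhead factor grhl1 (-0.56). Among those not called were anxa1a and cldnf, at 0.13 and -0.38. Of 13 junction genes tested, 7 were called, all lower, beside the same 13.5% of all genes, and the median was -0.32. They included the claudins cldnb (-0.91), cldn7b (-0.72) and cldni (-0.55), which form tight junctions, and cdh1, encoding E-cadherin (-0.65). Levels of cdh1 were 131, 147, 152 and 164 CPM in TP-0903 embryos, against 248, 230, 235 and 221 CPM in DMSO embryos, and the groups did not meet. The desmosomal genes dspa and pkp3a were at -0.04 and 0.03 and were not called.

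Of 7 basal epidermis genes tested at 8 h, 3 were called lower and 2 higher, where 13.5% and 15.4% of all genes were. The basement membrane genes frem3 and fras1 were lower (-1.12 and -0.39), and itgb4, an integrin of hemidesmosomes, and frem2b were higher (0.78 and 0.28). For itgb4 the TP-0903 libraries had 196, 174, 163 and 148 CPM, against 90.1, 103, 107 and 97.8 CPM in DMSO embryos, again without overlap. At 4 h frem2a was the gene of the epidermal lists that was called (-0.47, SE 0.089, edgeR adjusted p = 0.0365). At 8 h the groups overlapped for frem2a, at 40.9 to 63.0 CPM in TP-0903 libraries and 52.9 to 75.2 CPM in DMSO libraries.

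Of 8 ionocyte genes, which belong to the cell type that foxi3a specifies, 2 were called higher and 2 lower at 8 h, beside 15.4% and 13.5% of all genes. The carbonic anhydrase gene ca2, whose mammalian counterpart is also found in red blood cells, was higher (0.68), as was atp1b1b, a subunit of the sodium pump (0.32). The transcription factor gcm2 was lower (-0.54), and so was the sodium/proton exchanger slc9a3.2 (-2.15). Counts of slc9a3.2 were 2, 3, 1 and 4 in TP-0903 libraries, against 10, 11, 17 and 11 in DMSO libraries. It passed the filter on low counts through the DMSO libraries alone, the group where it is high, so its call is not counted as support. The nearest relative of foxi3a in the list, foxi3b, was at 0.04 (edgeR adjusted p = 0.881).

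Of 16 regulators of epidermal fate, 10 were called lower and 3 higher at 8 h, beside 13.5% and 15.4% of all genes. Their median was -0.52. The ventral homeobox genes vent (-1.20) and ved (-1.03), the ligand bmp7a (-0.80) and dlx3b (-0.77), a homeobox gene of the neural plate border, were the furthest. Counts of vent were low, at 11 to 20 per TP-0903 library and 24 to 58 per DMSO library. Those of ved (11 to 20 and 25 to 44) and bmp7a (15 to 35 and 41 to 50) were low as well. By contrast dlx3b had 184 to 268 counts per TP-0903 library and 338 to 494 per DMSO library. The genes called higher were gata3 (mean 46.8 CPM in TP-0903 embryos and 30.0 CPM in DMSO embryos), gata2a (23.7 and 18.4 CPM) and the ligand bmp2b (15.8 and 12.1 CPM).

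**Figure D5:**
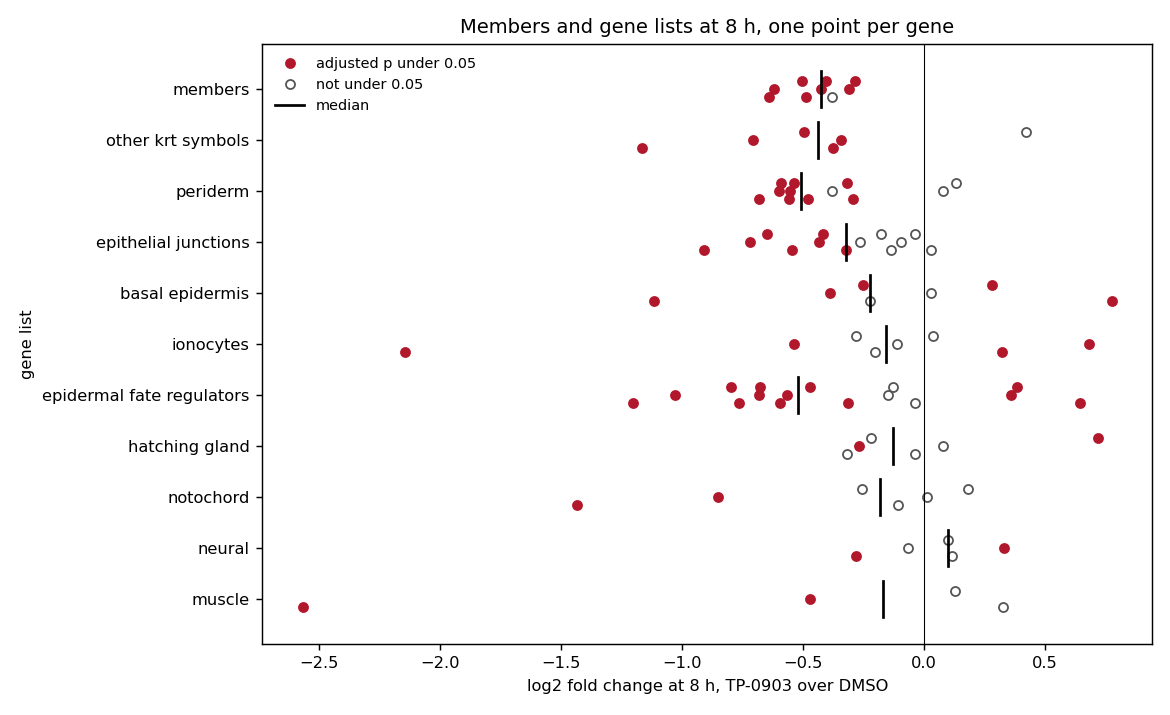
Log2 fold change at 8 h, TP-0903 over DMSO (horizontal axis), of the 9 genes and of each tested gene of the epidermal and other lists (1 point per gene); filled red points have an edgeR adjusted p under 0.05, open points do not, and black bars are medians. The 9 genes, the other krt symbols and the periderm list have medians of -0.43, -0.44 and -0.51, and the basal epidermis and ionocyte lists have called genes on both sides of 0.

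Markers of other tissues at 8 h were as follows, where 13.5% of all genes were called lower and 15.4% higher. Summed over its genes, the hatching gland list was 589 to 674 CPM in TP-0903 libraries and 538 to 753 CPM in DMSO libraries, with 1 of 6 genes called higher (prdm1a, 0.72) and 1 lower (cd63, -0.27). The neural list was 1044 to 1181 CPM in TP-0903 libraries and 1051 to 1214 CPM in DMSO libraries, with 1 of 5 genes called higher (elavl3, 0.33) and 1 lower (sox19a, -0.28). The notochord list was 1703 to 1888 CPM in TP-0903 libraries and 1835 to 2271 CPM in DMSO libraries, with 2 of 6 genes called, both lower (noto, -1.43, and col8a1a, -0.85). Counts of noto were low, at 3 to 13 per TP-0903 library and 21 to 31 per DMSO library. The TP-0903 libraries alone would not have carried noto past the filter on low counts. It passed with the DMSO libraries, the group where it is high, so its call is not counted as support. The muscle list was 2060 to 2495 CPM in TP-0903 libraries and 1979 to 2314 CPM in DMSO libraries, with 2 of 4 genes called, both lower (myog, -2.57, and myod1, -0.47). All 4 sums overlapped between the treatments, and no gene of these lists had a count of 0 in any library of 8 h. Such sums follow the most abundant genes of a list. The mean of actc1b was 2167 CPM in TP-0903 libraries and 1986 CPM in DMSO libraries, most of the muscle list. That of col2a1a was 1590 CPM in TP-0903 libraries and 1713 CPM in DMSO libraries, most of the notochord list. By comparison the periderm list was 1434 to 1574 CPM in TP-0903 libraries and 1738 to 2111 CPM in DMSO libraries, and the junction list was 1024 to 1100 CPM in TP-0903 libraries and 1309 to 1432 CPM in DMSO libraries, both without overlap. The basal epidermis list was 1152 to 1308 CPM in TP-0903 libraries and 1493 to 1581 CPM in DMSO libraries, and the list of fate regulators was 858 to 907 CPM in TP-0903 libraries and 1048 to 1153 CPM in DMSO libraries, also lower without overlap. Within the basal epidermis list, frem3 averaged 229 CPM in TP-0903 libraries and 496 CPM in DMSO libraries, beside mean sums of 1222 and 1545 CPM. Among the fate regulators, id1 averaged 296 CPM in TP-0903 libraries and 411 CPM in DMSO libraries, beside mean sums of 884 and 1109 CPM. In the periderm list, ppl averaged 614 CPM in TP-0903 libraries and 766 CPM in DMSO libraries, and evpla 404 and 496 CPM. The mean sums of the periderm list were 1494 and 1928 CPM. The ionocyte list lay the other way, at 305 to 339 CPM in TP-0903 libraries and 228 to 261 CPM in DMSO libraries, and ca2 made up most of it in TP-0903 libraries (182 to 213 CPM, against 113 to 127 CPM in DMSO libraries).

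Levels of the 9 genes were correlated over the libraries as a whole, though not for each pair at each time. Over the 24 libraries, with each time centred on its own mean, Pearson correlations between pairs of them ran from 0.38 (tp63 and foxi3a) to 0.92 (krt8 and epcam); the libraries share their treatments and include the 3 of 1 h that stood apart. Within the 8 libraries of 1 h, krt8 and epcam correlated at 0.996, krt5 and tp63 at 0.40, and tp63 and foxi3a at 0.03. Within the 8 libraries of 4 h, 4 of the 36 pairs were below 0, all of them with krt5: foxi3a (-0.28), epcam (-0.19), cyt1 (-0.13) and tp63 (-0.0059). Within those of 8 h the pairs ran from 0.47 (cyt1l and epcam) to 0.97 (krt4 and cyt1). Treatment means were not subtracted, and all 9 genes were lower in TP-0903 embryos at 8 h, so these correlations include that shared difference. The genes whose pattern was most like the mean of the 6 keratins were sought among 15926 compared over the 24 libraries. They were jupa (r = 0.96), cldnb (r = 0.96), the glycosyltransferase galnt6 (r = 0.96), the mitochondrial ribosomal protein mrps24 (r = 0.95) and the annexin anxa1b (r = 0.95). The first, jupa, encodes plakoglobin of adherens junctions and desmosomes. All of these genes were themselves called lower at 8 h.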

How the data were processed

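RNA of 24 samples of whole zebrafish embryos was sequenced as stranded, ribosome-depleted 50-base single reads. According to the study's methods, the authors aligned the reads with Novoalign (version 2.08.03 in the submitters' processing notes) to the zv9 genome with Ensembl splice junctions, discarded repetitive alignments, and counted alignments per gene with USeq. The deposited tables, 1 for each time, hold raw counts and, per the file headers, FPKM per gene and library. The columns of the authors' own comparison (log2 ratios and adjusted p-values) were not used. No coordinates are given, since no annotation of zv9 was used here.

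Counts were tested with edgeR 4.0.16 in R 4.3.3 (filterByExpr, TMM, glmQLFit, glmQLFTest; Benjamini-Hochberg over all genes), and the code was tested on simulated data. Each treatment comparison used the 8 libraries of its time, and each interaction and the DMSO comparison used the libraries of both times. CPM used TMM-scaled totals. Standard errors were obtained as the size of the log2 fold change divided by the square root of the F statistic of the edgeR test. Alternatives were RLE normalization, DESeq2 1.42.0, no filter, a replicate block, 1 fit of 24 libraries and leaving out each library.

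The genes and lists were chosen with earlier results of these data known. All 9 genes are named. Of each list, those called at 4 h or 8 h are named, at most 4 per list and time by size of change. Named beyond this rule are krtcap2, the fifth of the krt symbols called, and the 3 fate regulators called higher. Genes not called that are given for contrast are named as well. All of these additions were chosen after their values were seen. The lists hold 89 symbols, of which 86 were found. The 5 genes most like the keratins were ranked by Pearson correlation among genes with a mean of at least 1 CPM.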

Additional observations from a re-analysis of the deposited data

Results flagged for a closer look

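In groups of 4 libraries, a library was marked where its gap to the nearest other library, divided by the range of the group, exceeded Dixon's critical value for groups of this size. This held in 7 of 54 groups, and chance alone marks about 1 in 20, or 2.7. The groups are not independent, since the genes were measured in the same libraries, so these numbers do not measure an excess. DMSO replicate 4 of 1 h was the high library for krt4 (0.87), krt8 (0.90), krt18 (0.94), cyt1 (0.95) and epcam (0.91). In DMSO embryos at 4 h, replicate 3 was low for krt8 (0.91). Among TP-0903 embryos at 4 h, replicate 2 was high for cyt1l (0.86).

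For 6 genes edgeR's interaction test found different TP-0903 effects at 8 h and 4 h, as given above, with log2 differences of -0.55 (krt5), -0.42 (krt8), -0.99 (cyt1), -0.51 (tp63), -0.79 (epcam) and -0.96 (foxi3a).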

How the results depend on the processing

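All 117 log2 fold changes of the 9 genes at 8 h under 13 alternatives, and all 189 interactions of 8 h minus 4 h under 21, were below 0. With 1 fit of all 24 libraries, 2 of the 9 genes were called at 8 h instead of 8 and 1 instead of 6 in that interaction, and the genes called in all were 1478 instead of 5050 and 405 instead of 2255. Leaving out 1 library gave 8 to 9 called at 8 h, 3 to 7 in the interaction of 8 h minus 4 h, and 0 to 7 for DMSO 4 h against 1 h. At 1 h, at 4 h and in the interaction of 4 h minus 1 h it gave 0 to 0.

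With the replicate block, 2 genes instead of 5 were called for DMSO 4 h against 1 h, 8 at 8 h, 7 in the interaction of 8 h minus 4 h, and 0 at 1 h and 4 h. Correlations between the deviations of same-numbered TP-0903 and DMSO replicates ran from -0.74 to 0.61 at 1 h, from 0.081 to 0.45 at 4 h and from -0.095 to 0.062 at 8 h. At 4 h, TP-0903 replicates 1, 3 and 4 correlated best with the DMSO replicate of their own number. The numbers were not taken as pairs at any time, and whether those of 4 h are pairs was not tested. Over all genes the block moved the count to 223 from 118 at 4 h and to 1826 from 3042 for DMSO. DESeq2 called 215 genes at 4 h, 13 at 1 h and 7 in the interaction of 4 h minus 1 h, where edgeR called 118, 0 and 0; 1 fit of all libraries called 13 at 1 h.

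Without the 3 libraries of 1 h that stood apart, an alternative chosen after seeing the data, 222 genes were called at 1 h and signs turned for krt4 (-0.023), krt5 (-0.023), krt8 (-0.073), krt18 (-0.047) and epcam (-0.079). Leaving out 1 library turned the sign of small changes that were not called. At 1 h the ranges were -0.0083 to 0.27 (krt4), -0.093 to 0.42 (krt8), -0.043 to 0.30 (krt18), -0.032 to 0.35 (cyt1), -0.046 to 0.61 (epcam) and -0.17 to 0.15 (foxi3a). At 4 h they were -0.020 to 0.16 (krt4), -0.036 to 0.091 (krt18) and -0.10 to 0.15 (cyt1l). In the interaction of 4 h minus 1 h they were -0.16 to 0.11 (krt4), -0.25 to 0.26 (krt8), -0.27 to 0.073 (krt18), -0.089 to 0.010 (tp63) and -0.30 to 0.36 (epcam), and in DMSO -0.38 to 0.042 (krt8) and -0.014 to 0.075 (tp63). The causes were not tested. The gene foxi3a had under 100 counts in most libraries and the largest standard errors of the 9 genes at 4 h (0.20) and 8 h (0.16). At 1 h its standard error (0.31) was below those of cyt1l (0.32) and epcam (0.39). The part of depth in these errors was not tested.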
